A study of Mus musculus with 9 samples.

Results

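The probes described here are the 60-base probes whose names begin with mmu and end with the suffix PI428960544, on a 1-colour Agilent array that measured RNA of mouse aorta. They were chosen by name alone, in the scanner files, among spots that are not controls. The array held 33763 of them among 91188 probes, and 13479 were well above background on 3 or more of the 9 arrays and were tested. Another 2040 probes have an mmu name with another suffix, so that 35803 probes have an mmu name in all. These 2040 were counted with the other series, unless said otherwise. Identifiers are printed below without the suffix. The files give no gene name, transcript class or mapped position for any of these probes.

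The study fed male C57BL/6J mice for 12 weeks in 3 groups of 8 mice. The groups were a normal diet (ND), a high fat diet (HF), and a high fat diet with exercise of 60 min (HE); the kind of exercise is not given in the labels. Each group had 3 arrays, and nothing ties an array to a mouse, so p-values measure only the spread between arrays. All mice were fasted overnight before the aorta was taken, starting 24 h after the last exercise. The array identifiers put the 3 ND arrays and HF replicate 1 on slide 1, HF replicates 2 and 3 with HE replicates 1 and 2 on slide 2, and HE replicate 3 alone on slide 3. A difference between ND and HE therefore cannot be told apart from a difference between slides except through the HF arrays. HE replicate 2 was the dimmest array, with a median processed signal of 17.9 against 22.9 to 28.7 on the others.

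The prefix mmu stands for Mus musculus and is best known from the names of mouse microRNAs. Long non-coding RNAs, which arrays of this kind are built to measure, are transcripts longer than microRNAs that are not translated, and many are low in abundance and specific to a tissue. Microarrays with long probes read whatever RNA carries the complementary stretch, so a probe in a repeated element or in an overlapping gene can report several transcripts at once. In a whole aorta, fewer cells of a type and less RNA per cell cannot be told apart, and markers of cell types could not be checked because no probe is paired with a gene.

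The 3 brightest probes, and the pair of overlapping probes with the highest level, show what the top of the range looked like. Sequences are written 5′ to 3′ as the scanner files give them. The capitals mark the 50 bases that both probes of the pair share.
mmu_7788: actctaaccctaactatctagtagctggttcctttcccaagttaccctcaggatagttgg
mmu_28767: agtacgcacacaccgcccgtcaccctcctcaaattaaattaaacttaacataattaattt
mmu_1397: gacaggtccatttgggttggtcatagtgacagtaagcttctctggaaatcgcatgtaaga
mmu_124: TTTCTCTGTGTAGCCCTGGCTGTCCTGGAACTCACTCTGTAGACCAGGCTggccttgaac
mmu_854: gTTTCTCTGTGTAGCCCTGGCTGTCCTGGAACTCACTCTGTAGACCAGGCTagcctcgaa

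The 50 shared bases read as the reverse strand of B1, a short interspersed element scattered in very many copies through the mouse genome; this is from knowledge of the repeat, and no repeat library was searched. Next are the probes, among those well above background on all 9 arrays, that differed 2-fold or more in one of the 3 comparisons with the smallest unadjusted p, at most 2 in each direction.
mmu_25531: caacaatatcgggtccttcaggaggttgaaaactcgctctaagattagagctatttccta
mmu_11258: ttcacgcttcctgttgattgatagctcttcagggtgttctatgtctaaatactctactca
mmu_31144: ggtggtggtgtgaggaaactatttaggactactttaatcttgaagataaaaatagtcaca
mmu_31171: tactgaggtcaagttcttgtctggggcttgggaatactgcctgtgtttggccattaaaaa
mmu_3381: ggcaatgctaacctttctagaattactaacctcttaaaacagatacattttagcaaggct
mmu_12031: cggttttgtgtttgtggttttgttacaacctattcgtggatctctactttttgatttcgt
mmu_25330: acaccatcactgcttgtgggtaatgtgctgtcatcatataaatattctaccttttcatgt
mmu_11555: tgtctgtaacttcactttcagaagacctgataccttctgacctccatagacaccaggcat
mmu_7486: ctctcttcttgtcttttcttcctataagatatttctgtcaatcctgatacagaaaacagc
mmu_17385: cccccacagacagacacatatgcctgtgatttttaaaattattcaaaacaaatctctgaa

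Fewer of the mmu probes than of the other series were called well above background. The size of this gap depended on the flag used, as given at the end. On average 38.1% ± 2.53 (SD, n = 3) were well above background on the ND arrays, 36.1% ± 2.73 on the HF arrays and 35.9% ± 6.34 on the HE arrays. The shares were 40.5%, 35.5% and 38.2% in ND, 33.0%, 37.3% and 38.1% in HF, and 38.3%, 28.7% and 40.7% in HE. The 3 groups overlapped, and the lowest share was that of HE replicate 2. Over all other series the group means were 51.2%, 49.3% and 48.2%, and on each of the 9 arrays the mmu share was below that of the others. By probe, 9197 mmu probes were well above background on all 9 arrays, 4282 on 3 to 8, 2209 on 1 or 2, and 18075 on none. The tested share was 39.9%, against 46.6% for the A_30_P probes, 54.4% for the A_55_P probes, 56.2% for the A_52_P probes and 63.9% for the A_51_P probes. The 2040 mmu probes with another suffix had 41.7%. At the edge of the rule, the 598 probes detected on 3 arrays had a median level of -2.29 and the 695 detected on 2 arrays had -2.45. Levels here are on the log2 scale, with the array's 75th percentile subtracted, so that 0 is the signal of a probe at that percentile.

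The tested mmu probes were also dimmer. Their median level was -0.35 ± 0.04 (SD, n = 3) in ND, -0.40 ± 0.03 in HF and -0.34 ± 0.02 in HE, against 0.29, 0.32 and 0.29 for the tested probes of all other series. Within an array the median of the mmu probes minus that of the others does not depend on how arrays were scaled. It was -0.69, -0.57 and -0.67 on the ND arrays, -0.65, -0.74 and -0.75 on the HF arrays and -0.65, -0.64 and -0.59 on the HE arrays. The difference was negative on all 9 arrays. The lowest pair was HF replicates 2 and 3, and HF replicate 1, which shares a slide with ND, lay inside the ND range. Above a level of 6 the share was close to that of the other series pooled: 269 mmu probes, or 2.0% of those tested, against 2.09%. By single series that share ran from 0.346% of the A_52_P probes to 3.11% of the A_55_P probes. Above a level of 3 lay 10.2% of the mmu probes and 13.5% of the others. Between a level of -1 and the bottom of the scale lay 36.4% of the mmu probes and 24.5% of the others.

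The brightest probe, mmu_7788, had levels of 10.84, 10.98 and 10.81 in ND, 10.64, 10.61 and 10.60 in HF, and 10.76, 11.04 and 10.78 in HE. The 3 HF arrays lay below all others, by 0.26 ± 0.12 (SE) from the ND mean, which did not pass limma's test (adjusted p = 0.523). Probe mmu_28767 was next, at 10.67 ± 0.19 (SD, n = 3), 10.66 ± 0.20 and 10.89 ± 0.06 in ND, HF and HE, and mmu_1397 had 10.20 ± 0.11, 10.03 ± 0.13 and 10.27 ± 0.19. For both, the groups overlapped. None of the 3 shares 30 bases with another probe of the array.

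Base composition differed between the series. The mmu probes held on average 39.8% ± 4.35 G or C bases (SD over 33763 probes) and the others 42.7% ± 7.17 (SD over 57425 probes). Detection rose with the joint count of G and C bases in both sets. It went from 30.3% of the mmu probes with 20 to 23 such bases to 51.8% of those with 27 to 29. At these contents the other series had 39.4% and 57.6%, and at 24 to 26 the shares were 46.1% and 51.8%. The mmu share was thus lower at matched composition in all 3 of these bins, and 46 mmu probes held fewer than 20. At 30 or more G and C bases, with 380 mmu probes, the shares were 78.7% and 78.0%. Tested mmu probes held more C than those left out (21.7% against 18.3%), but less G (19.3% against 20.7%) and less A (28.1% against 31.5%).

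The sequences carried a mark of strand. The hexamer AATAAA, known as the core signal that precedes the poly(A) tail of transcripts, was found in 12.6% of the mmu probes, and its reverse complement TTTATT in 4.42%. In the other series the shares were 9.9% and 3.7%. The hexamer was in 13.3% of the tested mmu probes and in 12.2% of those left out. A match says only that these letters lie in the probe.

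The number in a probe's name went with its signal, a pattern noticed after the values had been seen. Of the probes numbered from 30000, 45.9% were tested, with a median level of -0.050. In the 5 blocks of lower numbers the share ran from 37.2% to 41.8% and the median level from -0.52 to -0.34. What the numbers stand for is not given in the files.

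Most mmu probes stood alone on the array: 31415 shared no run of 30 bases with another probe on the same strand, and 2348 did. The 41 that shared such a run with 5 or more other probes were set apart after their values had been seen. All 41 were well above background on all 9 arrays, with a median level of 7.25, and 31 of them had a level above 6. The median level of the 12410 tested probes with no such partner was -0.41. In the 41, the median log2 difference was 0.0044 from ND to HF, 0.042 from HF to HE and 0.022 from ND to HE. Probe mmu_124, which shares a run with 14 other probes, had levels of 9.45 ± 0.14 (SD, n = 3) in ND, 9.49 ± 0.07 in HF and 9.51 ± 0.07 in HE. Its partner mmu_854 had 9.53 ± 0.13, 9.55 ± 0.05 and 9.59 ± 0.12. For neither did any comparison reach an unadjusted p under 0.05. Partners give a check of the measurement: of 1657 pairs of an mmu probe with its only partner in another series, 578 had both probes tested, 921 neither and 158 one. The levels of the 578 pairs correlated at r = 0.885 and differed by a median of 0.30 on the log2 scale. Their log2 differences correlated at 0.534 between ND and HF, at 0.597 between HF and HE, and at 0.593 between ND and HE. These are correlations across probes that share sequence and arrays, and probes are not independent replicates. The sign of the difference was the same in 71.3%, 75.3% and 70.8% of the 578 pairs, in that order. Between ND and HF 59 of their mmu probes had an unadjusted p under 0.05 (limma), and 16 had a partner under it with the same sign. The counts were 72 and 29 between HF and HE, and 82 and 32 between ND and HE.

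High fat diet against normal diet asks what the diet did in the aorta without exercise. No mmu probe passed an adjusted p of 0.05 (limma, Benjamini-Hochberg over the 43946 tested probes of all series, lowest member value 0.179), and 0.0% of all tested probes did. At an unadjusted p under 0.05, 1506 of 13479 mmu probes differed, 11.2%, where the background over all tested probes was 9.81%. Of these 530 were higher in HF, 3.93% against a background of 4.49%, and 976 were lower, 7.24% against 5.32%. The median log2 difference was -0.044 over the mmu probes and 0.020 over the others. The A_30_P probes had a median of -0.049, so the shift was not particular to the mmu names, and the A_51_P probes had 0.089. With arrays scaled by their median the mmu counts turned to 882 higher and 555 lower, 6.54% and 4.12%, where all tested probes had 3488 and 1339, 7.94% and 3.05%. That scaling moved all probes together, and the mmu median stayed 0.064 below that of the others.

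This result moved with slide as a block, but the block leaves only HF replicate 1 to set against ND. A part of slide therefore cannot be told apart from the loss of HF replicates 2 and 3. With slide as a block 218 mmu probes were higher and 676 lower at an unadjusted p under 0.05. These are 1.62% and 5.02%, close to the 1.38% and 4.72% of all tested probes, and the mmu median lay -0.0065 from that of the others. A fit within slide 1 gives the same differences, with an mmu median of -0.0030 in both, so it is no separate check. There 1 HF array faced 3 ND arrays, and it is assumed to vary like them. The total of 1506 fell to 985 without ND replicate 2, 898 without HF replicate 2 and 978 without HF replicate 3, in fits that keep the other arrays. These are 7.31%, 6.66% and 7.26%, and the shares of all tested probes fell too, to 6.53%, 6.21% and 6.28%. With slide as a block 2 mmu probes passed the adjusted threshold, mmu_26237 and mmu_5781, named here after their values had been seen. Their log2 differences were -2.38 and -2.63, both with adjusted p = 0.0377 (limma), and the estimate rests on HF replicate 1. Over all series 25 probes passed under this block, so that the mmu share, 0.0148%, was below the 0.0569% of all tested probes.

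A difference of 2-fold or more with an unadjusted p under 0.05 was found for 21 mmu probes upward, 0.156% against a background of 0.241%, and for 74 downward, 0.549% against 0.457%. ND and HF arrays stood apart without overlap for 909 probes that were higher in HF, 6.74% against 8.61%, and for 1274 that were lower, 9.45% against 7.73%. Of the probes well above background on all 9 arrays, 4 were 2-fold or more above ND and 13 were 2-fold or more below, 0.0435% and 0.141%, where such probes of all series had 0.1% and 0.122%. Probe mmu_25531 had levels of 2.49, 2.42 and 2.85 in ND and 3.86, 3.58 and 3.46 in HF. The groups did not overlap, and the difference was 1.05 ± 0.18 (SE; limma adjusted p = 0.332). Over the alternatives its adjusted p ran from 0.123 to 0.729, and with slide as a block it differed by 1.27. Probe mmu_11258 had 0.19, -0.20 and 0.24 in ND and 1.18, 1.24 and 1.04 in HF, a difference of 1.08 ± 0.23 (SE; limma adjusted p = 0.368). In the other direction, mmu_31144 had 0.20, 0.12 and 0.27 in ND and -1.52, -0.99 and -0.98 in HF. All 3 HF arrays lay more than 2-fold below all ND arrays. The difference of -1.36 ± 0.20 (SE) had an adjusted p of 0.286 with limma, from 0.0909 to 0.692 over the alternatives, and shrank to -0.69 after the normexp background correction. Probe mmu_31171 had -0.88, -0.73 and -1.23 in ND and -2.36, -1.69 and -2.04 in HF, a difference of -1.08 ± 0.21 (SE; limma adjusted p = 0.346) that became -0.37 after normexp. The first pair kept a difference of at least 0.81 over all 23 alternatives, while the second pair, which is dimmer, depended on how background was removed.

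Exercise under the high fat diet, HE against HF, gave no mmu probe with an adjusted p under 0.05 (limma, lowest member value 0.128), and 0.0% of all tested probes. At an unadjusted p under 0.05, 1655 mmu probes differed, 12.3%, close to the background of 12.4%. The directions were uneven: 1153 were higher in HE, 8.55% against a background of 6.26%, and 502 were lower, 3.72% against 6.18%. In the other series 1596 were higher and 2214 lower. The median log2 difference was 0.062 over the mmu probes and -0.034 over the others, and 0.054 over the A_30_P probes and -0.10 over the A_51_P probes. This comparison shares the HF arrays with the one before, so that the opposite signs are not independent.

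The gap between the mmu probes and the rest was as large within a slide. Within slide 2, with 2 arrays a group, 1115 mmu probes were higher and 566 lower, 8.27% and 4.2% against 6.25% and 5.57% of all tested probes, and the mmu median lay 0.11 above that of the others, against 0.096 over all arrays. With slide as a block the differences rest on the same arrays of slide 2, without HF replicate 1 and HE replicate 3. The counts were then 1150 and 544, 8.53% and 4.04% against 6.16% and 5.47%. With arrays scaled by their median the counts turned to 622 higher and 894 lower, 4.61% and 6.63% against 3.28% and 10.1% of all tested probes, while the gap of 0.096 did not change, so the direction of the mmu probes is known only relative to the others. Each array left out in turn gave between 0.076 and 0.13 for the gap. The total of 1655 fell to 1092 without HF replicate 3, 8.1% against 7.71% of all tested probes. At matched G and C content the gap was 0.14, from medians of 0.0092 and -0.13, for 20 to 23 such bases. For 24 to 26 the medians were 0.085 and -0.063, for 27 to 29 they were 0.093 and -0.019, and for 30 or more 0.063 and 0.051. By the number in the name, the blocks below 30000 had medians from 0.062 to 0.086 and the last block had -0.0085. These bins were set after the values had been seen.

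A difference of 2-fold or more with an unadjusted p under 0.05 was found for 39 mmu probes upward, 0.289% against a background of 0.246%, and for 15 downward, 0.111% against 0.239%. The arrays of HF and HE did not overlap for 1759 probes that were higher in HE, 13.0% against 10.1%, and for 987 that were lower, 7.32% against 11.5%. Of the probes well above background on all 9 arrays, 14 were 2-fold or more above HF and 6 were 2-fold or more below, 0.152% and 0.0652%, where such probes of all series had 0.132% and 0.0847%. Probe mmu_3381 had levels of 0.37, 0.15 and 0.26 in HF and 1.34, 1.62 and 1.40 in HE, with ND between them at 0.71, 0.995 and 0.86. The 3 groups did not overlap. The difference of 1.19 ± 0.14 (SE) had a limma adjusted p of 0.128, which ran from 0.019 to 0.591 over the alternatives. The threshold was passed after normexp, under the filter of 9 arrays, with array weights, and with a prior that is trended and robust. Probe mmu_31144, low in HF above, stood at -0.36, 0.18 and 0.18 in HE, 1.16 ± 0.20 (SE) above HF (limma adjusted p = 0.223) with a log2 difference of -0.20 from ND. In the other direction, mmu_12031 had 3.04, 2.85 and 3.39 in HF and 1.63, 1.96 and 1.33 in HE, a difference of -1.45 ± 0.20 (SE; limma adjusted p = 0.221). Probe mmu_25330 had 2.79, 3.07 and 3.34 in HF and 1.89, 1.86 and 1.77 in HE, a difference of -1.23 ± 0.19 (SE; limma adjusted p = 0.222). Both were above background everywhere, without overlap between HF and HE. After normexp, when 12 probes of all series passed, they were among those past the threshold, with adjusted p of 0.0266 and 0.0394, as did mmu_3381 and mmu_20261 (a difference of -1.01, adjusted p = 0.0376), the last named after its values had been seen. Over all alternatives the adjusted p reached 0.591 for mmu_12031 and 0.741 for mmu_25330.

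HE against ND compares trained mice on the high fat diet with mice on the normal diet, and no slide holds both groups. No mmu probe passed an adjusted p of 0.05 (limma, lowest member value 0.156), and 0.0% of all tested probes did. At an unadjusted p under 0.05, 2313 mmu probes differed, 17.2% against a background of 14.7%. Of these 1380 were higher in HE, 10.2% against a background of 7.82%, and 933 were lower, 6.92% against 6.89%. With arrays scaled by their median the counts were 1323 and 923, 9.82% and 6.85% against 7.48% and 6.61%. The median log2 difference was -0.0077 over the mmu probes and -0.021 over the others. With slide as a block, which links the groups through HF only, 632 mmu probes were higher and 592 lower, 4.69% and 4.39% against 3.02% and 4.75% of all tested probes. The mmu median lay 0.013 above that of the others over all arrays and 0.097 above it under the block. The total fell to 1529 without HE replicate 2, 11.3% against 9.76% of all tested probes. Without HE replicate 3 the mmu split was 1396 higher and 1444 lower, the only one of the 9 left-out arrays that put lower ahead. This turn was not particular to the mmu probes. All tested probes went from 3438 higher and 3029 lower over all arrays to 3817 and 4201 without this array. The total was then 21.1% of the mmu probes, against 18.2% of all tested probes.

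In this comparison 100 mmu probes differed upward by 2-fold or more with an unadjusted p under 0.05, 0.742% against a background of 0.63%, and 95 downward, 0.705% against 0.678%. The arrays of ND and HE did not overlap for 1765 probes that were higher in HE, 13.1% against 10.4%, and for 1307 that were lower, 9.7% against 10.1%. Of the probes detected on all 9 arrays, 55 were 2-fold or more above ND and 24 were 2-fold or more below, 0.598% and 0.261%, where such probes of all series had 0.518% and 0.226%. Probe mmu_11258, already high in HF, had 1.59, 2.18 and 1.24 in HE, 1.60 ± 0.23 (SE) above ND (limma adjusted p = 0.156). Probe mmu_11555 had 0.18, -0.22 and -0.17 in ND, 0.43, 0.72 and 0.53 in HF and 1.21, 1.20 and 0.80 in HE, and no group overlapped another. Its difference from ND was 1.14 ± 0.17 (SE; limma adjusted p = 0.156). Downward, mmu_7486 had 0.65, 0.39 and -0.16 in ND, -0.50, -0.49 and -0.27 in HF and -1.19, -0.97 and -1.08 in HE. The groups stood apart in the order ND, HF, HE, with a difference of -1.37 ± 0.20 (SE; limma adjusted p = 0.156) from ND to HE. Probe mmu_17385 had the same order, at 3.02 ± 0.30 (SD, n = 3), 2.30 ± 0.28 and 1.52 ± 0.30, a difference of -1.50 ± 0.22 (SE; limma adjusted p = 0.156). The lowest adjusted p of these 4 over the alternatives was 0.0626. The groups in this order also run from slide 1 to slide 3, and the part of the slides was not tested for single probes beyond the block.

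Detection in 1 group alone was rare. Well above background on all 3 ND arrays and nowhere else were 18 mmu probes, 0.0533% of the 33763, against 35 probes or 0.061% of the other series. For HF there was 1 and for HE there were 2, against 2 and 3 of the other series. Of the 18, mmu_21026 was the brightest in its group, and mmu_19952 and mmu_17114 stood for HF and HE.
mmu_21026: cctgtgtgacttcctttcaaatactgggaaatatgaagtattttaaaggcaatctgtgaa
mmu_19952: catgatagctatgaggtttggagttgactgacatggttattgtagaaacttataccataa
mmu_17114: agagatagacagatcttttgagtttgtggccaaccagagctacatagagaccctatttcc

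All 3 were dim. Probe mmu_21026 had -1.51, -1.26 and -2.15 in ND and -2.36 or less elsewhere, which makes it at least 2.21-fold higher in ND than in HF and at least 1.79-fold higher than in HE. For these folds the bright group was set, array by array, against the dimmest probe that the scanner called well above background, or against the probe's own signal where that is higher. They are lowest values only for the background-subtracted signal used here. Probe mmu_19952 had -1.18, -1.57 and -2.08 in HF and was at least 2.33-fold higher than in ND and at least 2.22-fold higher than in HE. Probe mmu_17114 had -1.94, -1.33 and -1.82 in HE, at least 1.68-fold higher than in HF and at least 1.94-fold higher than in ND. Each of the 3 entered the tested set only through the group where it is high, so no test of these differences is given. The lowest folds did not hold after normexp, where all 3 probes kept the direction but differed less. There mmu_21026 had log2 differences of -0.32 from ND to HF and -0.30 from ND to HE. Those of mmu_19952 were 0.39 from ND to HF and -0.25 from HF to HE. Those of mmu_17114 were 0.29 from HF to HE and 0.34 from ND to HE.

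A position could be given for few probes. The RefSeq tables used here (GRCm38.p6) hold the 250 bases before and 50 after the start of genes, and microRNA hairpins, and 124 mmu probes matched one of them. In the strand of the gene 47 matched such a start window, 0.139% of the 33763 against 0.385% of the other series; 26 of the genes were protein coding and 21 long non-coding. On the opposite strand there were 66, 0.195% against 0.385% of the other series, at 47 protein coding and 19 long non-coding genes. Of the 47 on the gene's strand 22 were tested, 46.8% against 53.8% of such probes of the other series. Of the 66 on the other strand 24 were tested, 36.4% against 55.7%. A match shows that the letters occur there; they can occur elsewhere too. The located probes with the highest levels, and those with a difference of at least 1.5-fold and the smallest p, are these.
mmu_34579: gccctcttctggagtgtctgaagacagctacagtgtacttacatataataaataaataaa
mmu_1672: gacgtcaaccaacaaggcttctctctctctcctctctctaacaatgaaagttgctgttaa
mmu_33268: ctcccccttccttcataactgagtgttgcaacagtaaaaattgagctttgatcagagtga
mmu_13347: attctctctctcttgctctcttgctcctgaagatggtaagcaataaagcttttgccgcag
mmu_24807: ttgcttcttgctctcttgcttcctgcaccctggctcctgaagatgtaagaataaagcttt
mmu_29625: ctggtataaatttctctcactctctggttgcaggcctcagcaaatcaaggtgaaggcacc
mmu_33582: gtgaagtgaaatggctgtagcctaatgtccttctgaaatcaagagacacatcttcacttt
mmu_30538: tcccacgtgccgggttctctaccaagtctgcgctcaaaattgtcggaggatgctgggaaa
mmu_1203: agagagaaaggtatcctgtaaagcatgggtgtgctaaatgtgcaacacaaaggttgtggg

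Probe mmu_34579 lies at chr9:27060221-27060280 before the start of Ncapd3, which encodes a subunit of condensin, the complex that compacts chromosomes. It shares 30 bases with 9 other probes, so its level of 7.31 ± 0.03 (SD, n = 3) in ND, 7.38 ± 0.07 in HF and 7.44 ± 0.11 in HE cannot be given to 1 gene. Probe mmu_1672 (chr2:60125758-60125817) lies on the strand opposite to Baz2b, which encodes a bromodomain protein, before its start. Its levels were 7.76, 7.70 and 7.08 in ND, 7.42, 7.30 and 7.79 in HF and 6.96, 6.84 and 7.33 in HE, and HE overlapped both other groups. Probe mmu_33268 (chr13:103591395-103591454) lies before the start of the long non-coding RNA gene Gm46398, on its strand, and at the edge of the long non-coding RNA gene Gm30551. It had 6.74, 7.05 and 6.65 in ND, 5.95, 6.06 and 6.57 in HF and 6.29, 5.95 and 6.42 in HE. Both high fat groups lay below all ND arrays, by 0.62 ± 0.20 (SE; limma adjusted p = 0.44) for HF and 0.60 ± 0.20 (SE; limma adjusted p = 0.245) for HE. The probes mmu_13347 and mmu_24807, at the starts of the long non-coding RNA genes Gm32026 and Gm35195, lay at chr19:16084234-16084293 and chr6:59698074-59698133. Their mean levels over all arrays were 6.39 and 5.25, and neither had an unadjusted p under 0.05 in any comparison.

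The other located probes were dim or rested on 1 array. Probe mmu_29625, at the start of the long non-coding RNA gene C920009B18Rik (chr10:22306747-22306806), had levels between 1.28 and 1.96 on 8 arrays and -2.22 on HE replicate 2, where it was not well above background. Its difference for HE against HF was -1.41 ± 0.80 (SE; limma adjusted p = 0.476) and ran from -2.03 to -0.23 over the alternatives. Probe mmu_33582 (chr6:70719010-70719069), opposite to the start of the long non-coding RNA gene Gm46961 within the immunoglobulin kappa locus, was well above background on all ND and HE arrays and on no HF array. On the background-subtracted signal it was at least 1.43-fold higher in ND than in HF and at least 1.88-fold higher in HE than in HF. After normexp its log2 differences were smaller, -0.18 for HF against ND and 0.32 for HE against HF. Detection in these groups brought it into the tested set, so no test is given. Probe mmu_30538 (chr3:102936186-102936245) lies opposite to the start of Sycp1, a protein of the synaptonemal complex of meiosis, and mmu_1203 (chr2:104559401-104559460) lies in the gene of the long non-coding RNA Platr14. The difference of mmu_30538 for HE against HF was 0.69 ± 0.37 (SE; limma adjusted p = 0.46). Probe mmu_1203 was well above background on 2 ND, 1 HF and 2 HE arrays; its difference of 0.72 for HE against HF is taken largely against signal not above background, and was 0.20 after normexp.

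Despite the prefix, only 15 of the 33763 mmu probes matched a microRNA hairpin of RefSeq over 25 or more bases. On the hairpin's strand there were 13, 0.0385% against 0.0366% of the other series. On the opposite strand there were 3, 0.00889% against 0.0226%, and mmu_1748 is counted on both strands. Hairpins are the folded precursors that are cut to mature microRNAs. A 60-base probe is longer than a mature microRNA, so these probes read RNA that carries the hairpin stretch. The 15 were looked at after their values had been seen. Those along the strand of the hairpin over 45 or more bases are these, with the stretch of a mature microRNA in capitals where the probe holds one whole.
mmu_905: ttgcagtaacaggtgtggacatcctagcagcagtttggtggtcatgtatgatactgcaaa
mmu_1748: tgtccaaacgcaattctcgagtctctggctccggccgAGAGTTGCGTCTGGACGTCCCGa
mmu_32085: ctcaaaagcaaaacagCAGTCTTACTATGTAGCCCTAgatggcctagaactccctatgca
mmu_35819: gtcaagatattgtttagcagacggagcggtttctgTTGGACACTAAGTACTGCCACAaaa
mmu_1152: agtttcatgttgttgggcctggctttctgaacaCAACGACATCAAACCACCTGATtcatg
mmu_1605: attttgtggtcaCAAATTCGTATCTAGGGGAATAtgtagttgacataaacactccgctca
mmu_1962: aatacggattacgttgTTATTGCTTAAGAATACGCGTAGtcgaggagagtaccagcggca
mmu_311: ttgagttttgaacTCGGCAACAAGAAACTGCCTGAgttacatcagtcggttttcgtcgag
mmu_33124: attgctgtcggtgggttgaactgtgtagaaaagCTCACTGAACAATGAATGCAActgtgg
mmu_923: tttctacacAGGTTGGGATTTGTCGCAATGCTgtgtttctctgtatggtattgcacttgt

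Of these 10, the first 4 were detected and the other 6 were not well above background on any array. Probe mmu_905 matched Mir6516 over all 60 bases (chr11:117077371-117077430), inside the long non-coding RNA gene Snhg20, a host gene of small nucleolar RNA. Its levels were 1.09, 0.76 and 1.11 in ND, 1.18, 1.41 and 1.06 in HF and 1.62, 1.74 and 1.67 in HE. All 3 HE arrays lay above all others, by 0.69 ± 0.15 (SE) over ND and 0.46 ± 0.15 over HF, with limma adjusted p of 0.159 and 0.337. Over the alternatives the HE minus ND value stayed between 0.47 and 0.75. Probe mmu_1748 matched Mir219a-1 over its full length (chr17:34025009-34025068) and, on the opposite strand, Mir219c over 57 bases. It had 0.57 ± 0.04 (SD, n = 3) in ND, 0.42 ± 0.30 in HF and 0.89 ± 0.16 in HE, and HE was above all other arrays. The difference from HF was 0.46 ± 0.17 (SE; limma adjusted p = 0.35). Probe mmu_32085 matched Mir1191 over 57 bases, within the protein coding gene BC024978, at -1.19 ± 0.23, -1.28 ± 0.31 and -1.25 ± 0.26 in ND, HF and HE (SD, n = 3). Probe mmu_35819 matched Mir3069 over 58 bases, at a place also spanned by the long non-coding RNA gene Snhg10 and the guide RNA gene Scarna13. It ran from -2.96 to -0.30 over the arrays, with all groups overlapping.

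The 6 without signal matched Mir196a-1, Mir10a, Mir137, Mir196a-2, Mir181b-1 and Mir92-1, and their mean levels over the 9 arrays ran from -4.12 to -2.65. Mir10a and both Mir196a genes lie in the Hox gene clusters, which set position along the body axis, and Mir92-1 belongs to the cluster carried by Mir17hg. The mature microRNAs themselves were not measured by these probes. The remaining 5 matched 25 to 30 bases only, at Mir3471-1 and Gm51275 on the hairpin's strand and at Mir1954 and Mir3473f on the other, and had mean levels from 0.90 to 6.77 with detection on all 9 arrays.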

How the data were processed

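Aorta RNA was isolated with the mirVana kit and 0.2 µg of it labelled with Cy3, per the labels' protocols. According to the submitters' processing notes, the authors read the 9 one-colour arrays in Agilent Feature Extraction 10.7.1.1. The deposited scanner files give intensity on a linear scale, already background-subtracted per the file headers. The authors also deposited a table of log2 values whose medians were 4.79 on all arrays, used as an alternative; the step that equalised them is not given in the sources here. No column was left unused (0).

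From these, control spots and outlier flags were left out, the log2 values of a probe's spots were averaged, and each array's 75th percentile was subtracted. No spot was saturated. A probe was detected where at least 1 of 2 spots, or for more spots at least 50%, was well above background, and tested where detected on 3 or more arrays. limma 3.58.1 in R 4.3.3 (statmod 1.5.0) fitted all 9 arrays and 43946 probes at once (lmFit, eBayes), with Benjamini-Hochberg adjustment over all of them and a threshold of 0.05. The number of arrays limits the precision. On simulated data for HF against ND over 43946 probes, 57 of 100 probes changed by 1 and 93 of 100 changed by 2 on the log2 scale passed, with 9 unchanged probes called. The simulated noise was normal and independent between probes and arrays, with no slide effect, so these counts need not hold for the real arrays. Sequence matches were made in Python 3.11.15 with numpy 2.4.6 and pandas 2.3.3.

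Probes named are, per comparison and direction, the 2 with the smallest unadjusted p among those on all 9 arrays with a log2 difference of at least 1; the 3 brightest; the brightest detected in 1 group only; the brightest overlapping pair; and, of probes that match a RefSeq sequence in full, up to 5 per comparison and direction differing by 1.5-fold and the 5 brightest. The members, lists and rules were chosen with earlier results of these data known. Lists of genes and cell type markers planned for probes with a gene name could not be used.

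Alternatives were normexp with an offset of 50, other scalings, other filters, another prior, array weights, slide or replicate number as a block, fits within a slide, the authors' table, all mmu names as members (added after the data had been seen), and each array left out. Titles number the arrays 1 to 3 in each group; same-numbered arrays correlated between -0.25 and 0.137 in their deviations from group means, so the numbers do not pair them.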

Additional observations from a re-analysis of the deposited data

How the results depend on the processing

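No mmu probe passed the adjusted threshold in the HE against ND comparison under any alternative. In HE against HF 4 passed after normexp, of 12 over all series, and 1 each, of 3 over all series, with the filter of 9 arrays, the trended and robust prior, and array weights. In HF against ND 2 passed with slide as a block, of 25 over all series. The same block gave 894 probes at an unadjusted p under 0.05 and a median of -0.0030 for HF against ND, and 1224 and 0.048 for HE against ND. Within slide 1 the values for HF against ND were 794 and -0.0030. Scaling by the array median turned the median difference to 0.037 for HF against ND and -0.0095 for HE against HF. With no filter on dim probes the medians were 0.045, 0.13 and 0.17 from ND to HF, from HF to HE and from ND to HE; the cause was not tested. Each array left out in turn gave totals of 898 to 2165, 1092 to 1901 and 1529 to 2840 in that order, and medians of -0.068 to -0.016, 0.046 to 0.076 and -0.030 to 0.022. The totals are 6.66% to 16.1%, 8.1% to 14.1% and 11.3% to 21.1% of the mmu probes. All tested probes had 6.21% to 13.7%, 7.71% to 13.2% and 9.76% to 18.2%. Detection by the other flag of the files, signal positive and significant, was 73.8%, 70.9% and 71.0% in ND, HF and HE. By that flag the other series had 78.63%, 74.75% and 76.25% on the ND arrays. They had 70.16%, 75.54% and 76.65% on the HF arrays and 76.27%, 66.85% and 77.63% on the HE arrays. The mmu share was lower on each array by this flag too, but the gap was much narrower. The median level of the mmu probes minus the others was -0.40, -0.44 and -0.37 after normexp and -0.46, -0.54 and -0.47 with the filter of 9 arrays. The replicate block, by numbers that do not pair the arrays, gave 1204, 1386 and 1972 probes and changed no call. These are 8.93%, 10.3% and 14.6%, against 7.64%, 10.2% and 12.5% of all tested probes.

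Dim probes varied more between arrays: the median SD within groups was 0.32 for mmu probes below a level of -1 and 0.15 above 3. Without a genome, most probes have no position here, and a match to a gene start does not show that the probe reads that gene.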
